A study of Mus musculus with 6 samples.

Results

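Esam, Tek, Fgd5, Cavin2, Cav2 and Mmrn1 are 6 genes that blood vessel endothelium is known to share with haematopoietic stem cells or platelets, and they were followed through single-cell libraries of mouse stem and progenitor cells. The genes were chosen by name, as 6 of the 13278 genes deposited, and counts could be recovered for all 6. The study sequenced 497 single cells, sorted from C57BL/6 mice, in 6 libraries with 1 library per group, by a plate-based modified Smart-seq2 method that enriches the 3' ends of transcripts. The MPP2-containing library (80 cells) held MPP2, a multipotent progenitor gate, the CD48+ fractions of HSC1 and HPC1, and CD201-CD48- HPC1. The HPC1 library (82 cells) held CD201+CD48- and CD48+ cells of the progenitor gate HPC1, and the HSC1 library (84 cells) held the same CD201 and CD48 fractions of the stem cell gate HSC1. The HSC2/MPP4 library (89 cells) held CD48+ HSC2 and MPP4, and the CD48-negative HSC2 library (86 cells) held CD201+ and CD201- cells of CD48- HSC2. The double-negative library (76 cells) held CD201-CD48- HSC1 and CD201-CD48- HPC1. No genetic change or treatment is named. The labels give mice of 8 weeks and total RNA for HSC2/MPP4 and CD48-negative HSC2, and 8 to 10 weeks and polyA RNA for the other 4 libraries. HSC1 and HPC1 carry a spleen label and the other libraries a bone marrow label, although the series title names bone marrow alone. Gate, tissue, RNA type and library cannot be told apart, and no column name ties a cell to a gate within its library.

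Haematopoietic stem cells and the endothelium that lines vessels arise close together in the embryo and keep part of their gene programmes in common. Platelets and the megakaryocytes that release them share adhesion, granule and membrane proteins with endothelium as well. Esam encodes an adhesion protein of endothelial junctions and platelets that is used to sort stem cells. Tek encodes TIE2, the receptor for angiopoietins, and Fgd5 encodes an exchange factor that activates the small GTPase CDC42 and whose locus is used to mark stem cells in mice. Cavin2 and Cav2 encode a coat protein and a caveolin of caveolae, the flask-shaped pits of the plasma membrane. Mmrn1 encodes multimerin 1, a large secreted protein stored in platelet alpha granules and in endothelial cells.

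In GENCODE vM21 on GRCm38, all 6 are protein-coding genes on the plus strand. Esam lies on chromosome 9 from base 37528078 to 37538319, Tek on chromosome 4 from 94739289 to 94874976, and Fgd5 on chromosome 6 from 91978878 to 92076004. Cavin2 lies on chromosome 1 from 51289126 to 51302960, Cav2 on chromosome 6 from 17281185 to 17289115, and Mmrn1 on chromosome 6 from 60924976 to 60989378. Antisense genes run across the whole of Cavin2 (9330175M20Rik) and of Cav2 (Gm15581), and an antisense gene (4930466I24Rik) and a short unclassified gene lie within Fgd5. Whether counting used the strand is not given in the sources used here, so counts of Cavin2, Cav2 and Fgd5 could include reads of these partners. No gene overlapped Esam, Tek or Mmrn1.

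The promoter windows of 3 genes are shown, since Cavin2 and Cav2 encode proteins of the same structure and stood in different orders across the libraries, and Tek was close to level in pooled counts outside HSC2/MPP4. Each window runs from 250 bases before to 50 bases after the annotated start, 5′ to 3′ on the plus strand, from RefSeq on GRCm38.p6; 5 of the 6 genes had a window. Capitals mark AGATAA, the core bound by GATA factors, or AGGAAG, a core bound by ETS factors, both searched on both strands.
Cavin2: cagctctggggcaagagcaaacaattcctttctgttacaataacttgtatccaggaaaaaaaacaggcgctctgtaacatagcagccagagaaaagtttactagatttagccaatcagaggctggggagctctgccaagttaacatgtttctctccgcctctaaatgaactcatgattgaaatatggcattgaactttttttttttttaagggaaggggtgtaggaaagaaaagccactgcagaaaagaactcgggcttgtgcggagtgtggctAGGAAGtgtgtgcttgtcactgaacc
Cav2: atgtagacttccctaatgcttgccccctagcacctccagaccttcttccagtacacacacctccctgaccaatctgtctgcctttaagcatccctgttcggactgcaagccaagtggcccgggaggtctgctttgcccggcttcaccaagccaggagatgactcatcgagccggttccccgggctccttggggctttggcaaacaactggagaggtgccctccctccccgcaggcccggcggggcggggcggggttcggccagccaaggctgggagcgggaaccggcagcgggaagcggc
Tek: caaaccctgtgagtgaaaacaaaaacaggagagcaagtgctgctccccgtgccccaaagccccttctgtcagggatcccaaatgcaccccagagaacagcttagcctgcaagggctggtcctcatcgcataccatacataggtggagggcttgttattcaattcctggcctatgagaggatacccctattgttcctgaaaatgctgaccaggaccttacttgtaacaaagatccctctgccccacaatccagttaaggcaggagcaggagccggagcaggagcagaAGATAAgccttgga
The windows are chr1:51288876-51289175, chr6:17280935-17281234 and chr4:94739039-94739338. Cavin2 held 1 AGGAAG, at base 25 after the start, and Tek held 1 AGATAA, at base 37 after the start. The Cav2 window held neither motif. Of 32851 mouse promoter windows of this length, 35.4% held AGGAAG and 11.2% held AGATAA on either strand. GC content was 43.3% for Cavin2, 64.3% for Cav2 and 52% for Tek, against a median of 52.7% over all windows.

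The level of a gene is its count over all cells of 1 library, per 1000000 counts (CPM), with an exact 95% Poisson interval. These intervals, and the exact Clopper-Pearson intervals on shares of cells, cover counting error only, because a group has 1 library and no replicate. Libraries totalled between 15019501 counts (MPP2-containing) and 2778858 (CD48-negative HSC2), with medians per cell of 145496 and 23540. Shares of cells were therefore taken after thinning every cell to 10000 counts, which kept 463 cells and left out 20 of CD48-negative HSC2 and 0 to 8 of each other library. Ratios are log2 of CPM with 10 CPM added to each side, and a gene is counted as higher or lower past 2-fold. No p-value was computed.

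The check lists give the levels of cell type markers in each library. The stem cell list (16 genes besides the 6) summed to 1045 CPM in HSC2/MPP4 and to between 1425 and 3184 CPM elsewhere. The endothelial list (12 recovered genes besides the 6) summed to between 347 CPM in MPP2-containing and 674 CPM in CD48-negative HSC2. Most of it came from Egfl7, Eng, Erg and Emcn, while Plvap was at 0 in HSC1, Sox18 and Cldn5 were at 0 in HSC2/MPP4, and Kdr, Plvap, Sox18, Cldn5 and Ramp2 were at 0 in CD48-negative HSC2. In HPC1 these genes were counted in a minority of cells, with 264 counts of Cldn5 in 16 cells, 162 of Sox18 in 12, 129 of Ramp2 in 19, 83 of Kdr in 11 and 2 of Plvap in 2. In HSC1 there were 108 counts of Ramp2 in 9 cells, 52 of Cldn5 in 7, 38 of Kdr in 4 and 27 of Sox18 in 1. Double-negative had 153 of Sox18 in 11 cells, 9 of Plvap in 4, 4 of Kdr in 1, 2 of Ramp2 in 2 and 1 of Cldn5 in 1. MPP2-containing had 94 of Plvap in 9 cells, 32 of Sox18 in 7, 20 of Kdr in 1, 2 of Ramp2 in 2 and 2 of Cldn5 in 1. HSC2/MPP4 had 25 of Ramp2 in 6 cells, 14 of Kdr in 2 and 12 of Plvap in 2. Cdh5, the defining endothelial cadherin, was not analysed here. The megakaryocyte-platelet list (16 genes besides the 6) had a wider span, at 1688 CPM in MPP2-containing, 4255 CPM in HPC1, 668 CPM in HSC1, 159 CPM in HSC2/MPP4, 451 CPM in CD48-negative HSC2 and 1229 CPM in double-negative. A stromal list of 5 recovered genes summed to 5.46 to 36.7 CPM. The part of these marker sums in the levels below was not tested. No 2 cells had identical counts.

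**Figure D1:**
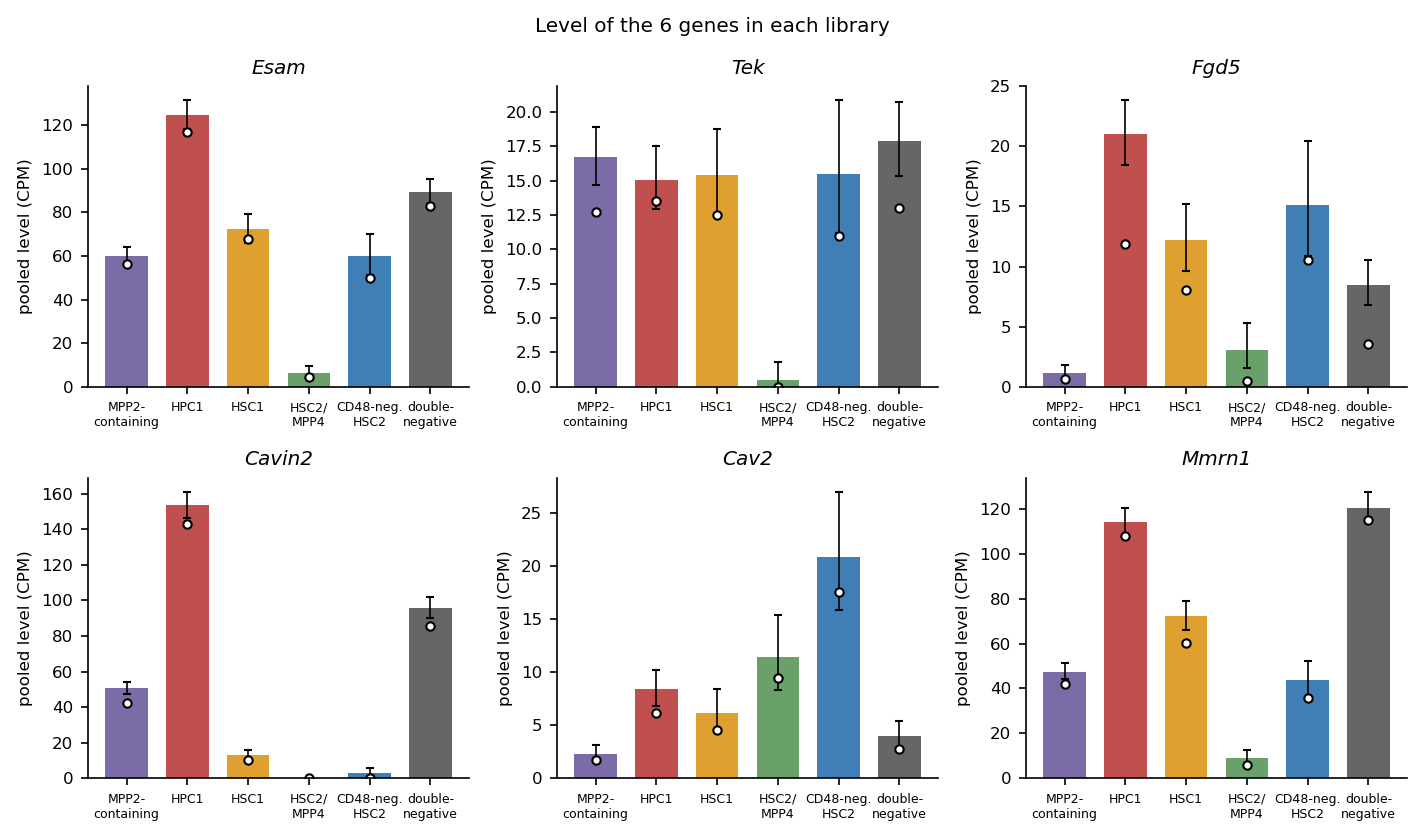
Pooled level (CPM) of each gene in the 6 libraries; bars are 1 library each, error lines are exact 95% Poisson intervals, and open circles give the level without the cell that held the most counts of the gene. Cavin2 stood at 154 CPM in HPC1 and at 0 in HSC2/MPP4, whereas Cav2 was highest in CD48-negative HSC2 at 20.9 CPM.

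Esam, the junctional adhesion protein, was found in every library and was high in 5 of them. It stood at 59.9 CPM in MPP2-containing, 125 CPM in HPC1, 72.3 CPM in HSC1, 6.37 CPM in HSC2/MPP4, 60.1 CPM in CD48-negative HSC2 and 89.1 CPM in double-negative. HPC1 was the highest and HSC2/MPP4 the lowest, and the intervals of HSC1 and CD48-negative HSC2, and of CD48-negative HSC2 and MPP2-containing, overlapped. After thinning, Esam had a count in 32.5% of MPP2-containing, 58.0% of HPC1, 37.5% of HSC1, 6.17% of HSC2/MPP4, 24.2% of CD48-negative HSC2 and 48% of double-negative cells. With another random thinning the share was 45% in MPP2-containing, above the interval there (22.4 to 43.9%). It was then 33.75% in HSC1 and 31.8% in CD48-negative HSC2, so MPP2-containing and HSC1 changed order. Esam was broadly spread, since no single cell held more than 9.19% of its counts in the 4 deeper libraries.

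Mmrn1, the granule protein, followed a similar order with double-negative at the top. Its level was 47.5 CPM in MPP2-containing, 114 CPM in HPC1, 72.3 CPM in HSC1, 9.17 CPM in HSC2/MPP4, 43.5 CPM in CD48-negative HSC2 and 120 CPM in double-negative. The double-negative and HPC1 intervals overlapped, as did those of MPP2-containing and CD48-negative HSC2. In HSC2/MPP4 a single cell held 38.9% of the counts, and the level without it was 5.74 CPM. Mmrn1 had a count in 53.1% of HPC1 cells (95% interval 41.7 to 64.3%) and in 48% of double-negative cells (36.3 to 59.8%), against 7.41% of HSC2/MPP4 cells (2.77 to 15.4%).

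Cavin2, the caveola coat protein, had the widest range of the 6. It stood at 50.7 CPM in MPP2-containing, 154 CPM in HPC1, 12.9 CPM in HSC1, 0 in HSC2/MPP4, 2.88 CPM in CD48-negative HSC2 and 95.9 CPM in double-negative, and no neighbouring intervals in that ranking overlapped. By the 3-count limit used here for zeros, the 0 in HSC2/MPP4 allows up to 0.765 CPM, and the upper end of its two-sided Poisson interval was 0.94 CPM. All 8 counts in CD48-negative HSC2 came from 1 cell, and without it the library was at 0. Thinned, 49.4% of HPC1 cells had a count (38.1 to 60.7%), 31.25% of MPP2-containing cells, 28% of double-negative cells and 12.5% of HSC1 cells, against 0 of 81 HSC2/MPP4 cells and 0 of 66 CD48-negative HSC2 cells. By the 3-count limit those zeros allow shares of up to 3.70% (HSC2/MPP4) and 4.55% (CD48-negative HSC2), with upper Clopper-Pearson bounds of 4.45% and 5.44%. Its counts were concentrated, with at least 50% of them in 7 of 82 HPC1 cells, 5 of 80 MPP2-containing cells and 4 of 76 double-negative cells.

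Tek, the angiopoietin receptor, had a nearly flat pooled level across 5 libraries. It stood at 16.7 CPM in MPP2-containing, 15.1 CPM in HPC1, 15.4 CPM in HSC1, 15.5 CPM in CD48-negative HSC2 and 17.9 CPM in double-negative, with overlapping intervals from each to the next. HSC2/MPP4 stood apart with 2 counts, both in 1 cell, at 0.51 CPM (0.0617 to 1.84). The thinned share was low everywhere, from 4.55% in CD48-negative HSC2 to 14.7% in double-negative, with 0 of 81 HSC2/MPP4 cells. Without its highest cell in each library, the pooled level was between 10.9 and 13.5 CPM in the 5 libraries. As a mean of per-cell CPM, which weights cells equally, it was less even, at 24.2 CPM in HSC1, 11.2 CPM in CD48-negative HSC2 and 14.5 CPM in double-negative.

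Fgd5, the CDC42 exchange factor, was sparse, and 1 cell set much of its level. Its pooled level was 1.13 CPM in MPP2-containing, 21.0 CPM in HPC1, 12.2 CPM in HSC1, 3.06 CPM in HSC2/MPP4, 15.1 CPM in CD48-negative HSC2 and 8.50 CPM in double-negative. A single cell held 45.6% of its counts in HPC1, 36.7% in HSC1, 83.3% in HSC2/MPP4 and 58.3% in double-negative. Without that cell the levels were 0.671 CPM in MPP2-containing, 11.9 CPM in HPC1, 8.02 CPM in HSC1, 0.522 CPM in HSC2/MPP4, 10.6 CPM in CD48-negative HSC2 and 3.59 CPM in double-negative. After thinning, Fgd5 had a count in 10.6% of CD48-negative HSC2, 10% of HSC1 and 8.64% of HPC1 cells, and in 1.25% of MPP2-containing and 1.23% of HSC2/MPP4 cells.

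Cav2, the caveolin, had its highest level in CD48-negative HSC2, unlike the other 5 genes. It stood at 2.26 CPM in MPP2-containing, 8.37 CPM in HPC1, 6.16 CPM in HSC1, 11.5 CPM in HSC2/MPP4, 20.9 CPM in CD48-negative HSC2 and 3.95 CPM in double-negative. The interval in CD48-negative HSC2 (15.8 to 27.0 CPM) lay above that of HSC2/MPP4 (8.36 to 15.3 CPM), and from the second rank down each interval overlapped the next. In pooled counts Cav2 had its second-highest level in HSC2/MPP4, the library in which Esam, Tek, Cavin2 and Mmrn1 were lowest. That rank did not hold by cells. The mean of per-cell CPM was 10.4 in HPC1 and 8.65 in HSC2/MPP4, and the thinned share 8.64% in HPC1 and 6.17% in HSC2/MPP4. Its thinned share was 10.6% in CD48-negative HSC2 (4.37 to 20.6%) and 1.25% in MPP2-containing (0.0316 to 6.77%). Both libraries with the highest pooled Cav2 levels were made from total RNA and labelled 8 weeks, so that difference cannot be told apart from the gates.

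**Figure D2:**
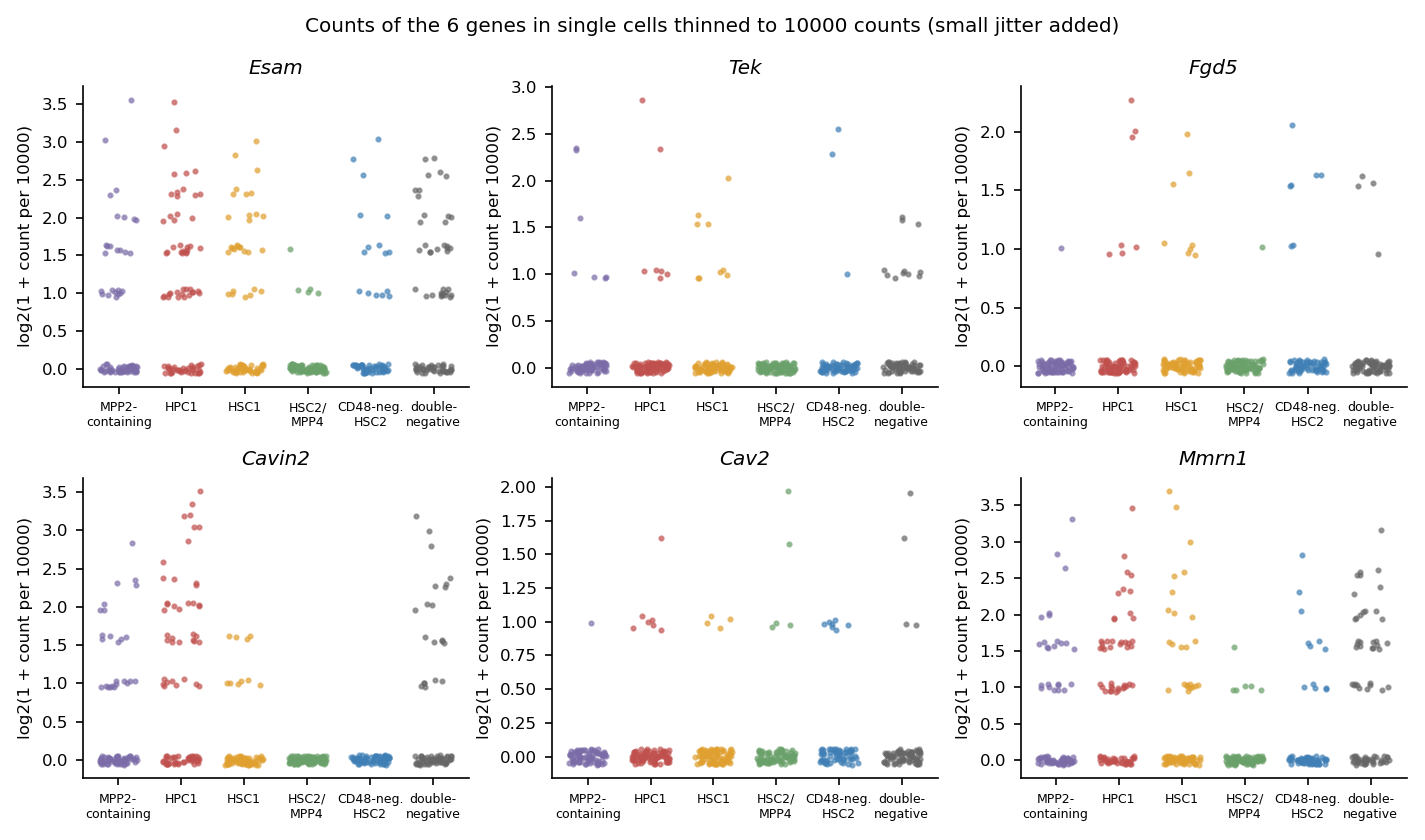
Thinned counts of each gene in single cells, as log2(1 + count per 10000), by library; 1 point is 1 cell and a small jitter was added. Esam, Mmrn1 and Cavin2 had counts in many HPC1 cells, while most cells of every library sat at 0 for Tek, Fgd5 and Cav2, and all HSC2/MPP4 and CD48-negative HSC2 cells sat at 0 for Cavin2.

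In HPC1 over HSC1, both labelled spleen, Cavin2 was the 1 gene of the 6 past 2-fold. It stood at 154 CPM in HPC1, against 12.9 CPM in HSC1, a log2 ratio of 2.84 (counting interval 2.65 to 3.02), which is 11.9-fold without added CPM. Of all 11989 recovered genes, 1.88% were at least 2-fold higher in HPC1 and 1.99% at least 2-fold lower. Esam (0.71), Mmrn1 (0.59), Fgd5 (0.48) and Cav2 (0.18) had positive log2 ratios under 2-fold and Tek was at -0.02. The median of the 6 was 0.54, against 0 over all genes. The megakaryocyte-platelet list went the same way, with 11 of 16 genes at least 2-fold higher in HPC1 and none lower, including Pf4 (4.59), a platelet chemokine, and Gp1bb (3.57), which encodes part of the GPIb-IX adhesion receptor of platelets. Without the highest cell of each gene 10 of these 16 were higher. The part of the list genes in the Cavin2 difference was not tested.

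In HSC1 over double-negative, Cavin2 was again the 1 gene past 2-fold, now lower, at 12.9 CPM in HSC1 against 95.9 CPM in double-negative (log2 ratio -2.21). By the mean of log2(CPM + 10) over cells it was at -0.96, under 2-fold. At least 2-fold lower levels in HSC1 were found for 1.46% of all genes, and higher ones for 2.15%. Mmrn1 was at -0.67, Esam at -0.27, Tek at -0.14, Cav2 at 0.21 and Fgd5 at 0.26. Beside it, 6 of 16 megakaryocyte-platelet genes were at least 2-fold lower in HSC1 and none higher. HSC1 and HPC1 carry the spleen label and double-negative the bone marrow label, so tissue cannot be told apart from gate.

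In HPC1 over double-negative no gene of the 6 passed 2-fold in either direction, against 2.01% of all genes higher and 1.32% lower. The log2 ratios were 0.75 for Fgd5, 0.63 for Cavin2, 0.44 for Esam, 0.40 for Cav2, -0.07 for Mmrn1 and -0.15 for Tek. Of the megakaryocyte-platelet list, 6 of 16 genes were at least 2-fold higher in HPC1, including Pf4 (2.99), and none lower. Fgd5 stood at 21.0 CPM in HPC1 and 8.50 CPM in double-negative, where 1 cell held 45.6% and 58.3% of its counts. Without the highest cell of each library its log2 ratio was 0.69.

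In MPP2-containing over double-negative all 6 genes had negative log2 ratios, and Mmrn1 alone passed 2-fold. It stood at 47.5 CPM in MPP2-containing and 120 CPM in double-negative, a log2 ratio of -1.18 (-1.30 to -1.07). With the mean of per-cell CPM it was at -0.91, under 2-fold, and Fgd5 passed 2-fold as well with 1 CPM added (-2.16) or scaled to recovered genes (-1.01). At least 2-fold lower levels in MPP2-containing were found for 2.04% of all genes, and higher ones for 2.01%. Cavin2 was at -0.80, Fgd5 at -0.73, Esam at -0.50, Cav2 at -0.19 and Tek at -0.06, and the median was -0.62. The stem cell list had 9 of 16 genes at least 2-fold lower here, among them Mecom (-1.43), a transcription factor, and Mllt3 (-1.42), a chromatin reader, both known from stem cell maintenance. Without the highest cell of each gene 7 of 16 were lower. The summed level of the list, 1425 CPM in MPP2-containing and 2691 CPM in double-negative, moved with the 6 genes, and its part in them was not tested.

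In HSC2/MPP4 over CD48-negative HSC2, the pair with total RNA and a shared age, 3 of the 6 were at least 2-fold lower. At least 2-fold lower levels in HSC2/MPP4 were found for 3.31% of all genes, and higher ones for 1.87%. Esam stood at 6.37 CPM in HSC2/MPP4, against 60.1 CPM in CD48-negative HSC2 (-2.10, counting interval -2.39 to -1.81). Mmrn1 stood at 9.17 CPM in HSC2/MPP4, against 43.5 CPM in CD48-negative HSC2 (-1.48). Tek stood at 0.51 CPM in HSC2/MPP4, against 15.5 CPM in CD48-negative HSC2 (-1.28). Fgd5 was at -0.94 and Cav2 at -0.52, and Cavin2 (-0.37) had no count in HSC2/MPP4 and counts from 1 cell in CD48-negative HSC2. The median of the 6 was -1.11, against -0.04 over all genes. By the mean of log2(CPM + 10) over cells Esam stayed past 2-fold (-1.04), and Mmrn1 (-0.55) and Tek (-0.24) did not. In the stem cell list 10 of 16 genes were at least 2-fold lower, including Procr (-2.17), which encodes CD201, and in the megakaryocyte-platelet list 5 of 16. Without the highest cell of each gene these counts were 8 and 5. The endothelial list had 1 of 12 lower, Emcn (-1.35), and a median of 0, and without the highest cell of each gene Eng (-1.01) was lower as well.

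In CD48-negative HSC2 over double-negative the 6 genes split. Cav2 was higher, at 20.9 CPM in CD48-negative HSC2 against 3.95 CPM in double-negative (1.15, counting interval 0.86 to 1.43), and at 0.28 by the mean of log2(CPM + 10) over cells. Cavin2 was lower, at 2.88 CPM in CD48-negative HSC2 against 95.9 CPM in double-negative (-3.04), as was Mmrn1, at 43.5 CPM in CD48-negative HSC2 against 120 CPM in double-negative (-1.29). Of all genes, 4.3% were at least 2-fold higher in CD48-negative HSC2 and 2.72% lower. Fgd5 was at 0.44, Tek at -0.13 and Esam at -0.50. The 2 genes of the caveola thus stood on opposite sides, and 7 of 16 megakaryocyte-platelet genes were lower beside Cavin2 and none higher. RNA type and age range differ between these libraries and cannot be told apart from the gates. The double-negative library serves as the lower side of 4 of these comparisons, so their ratios are not independent.

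**Figure D3:**
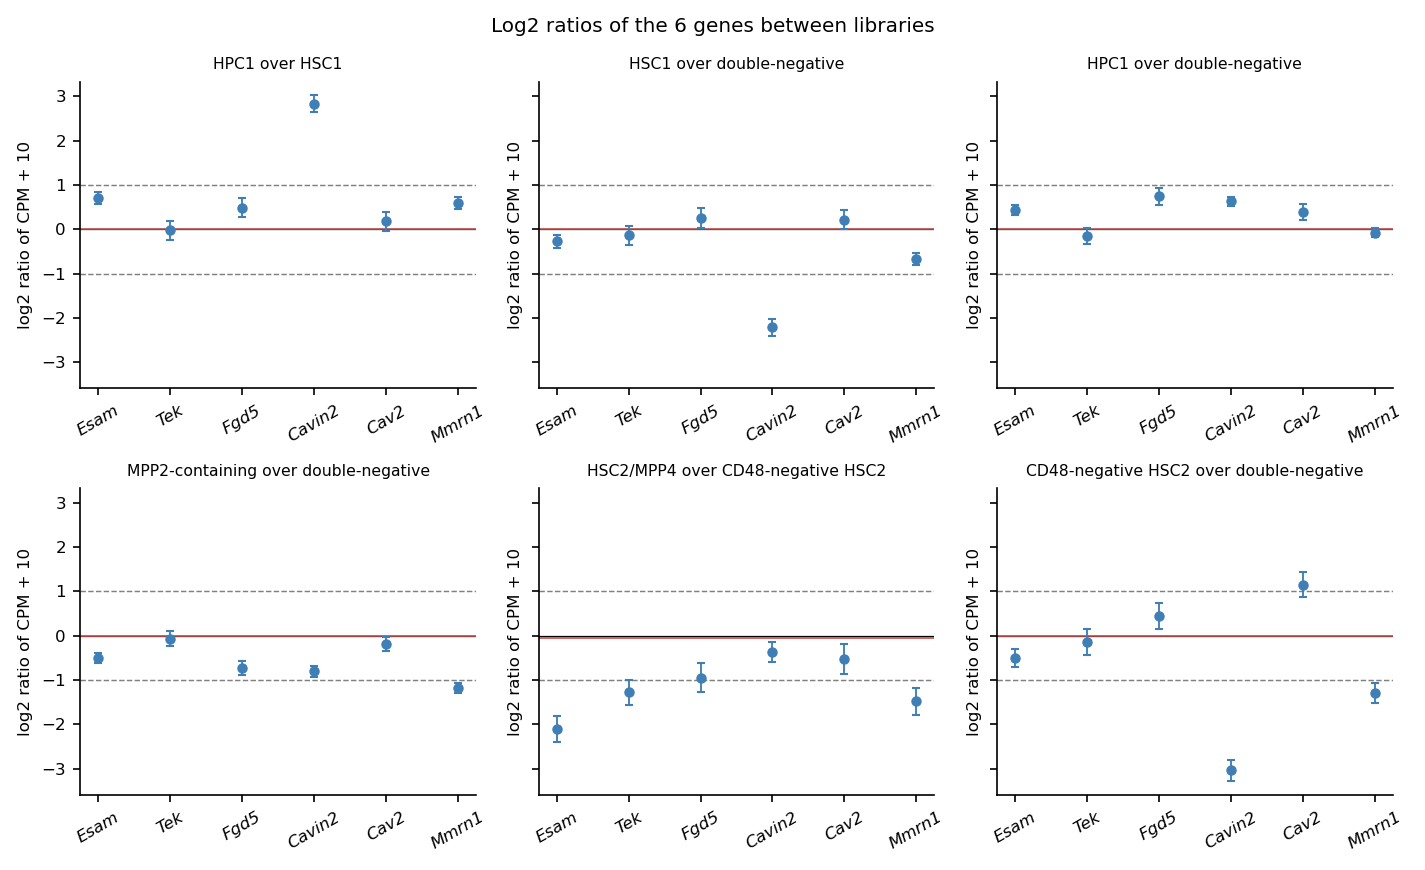
Log2 ratios of CPM + 10 for the 6 genes in the 6 comparisons, first-named library over second; points carry 95% counting intervals, dashed lines mark 2-fold and the red line the median of all 11989 genes. Cavin2 moved furthest, from 2.84 in HPC1 over HSC1 to -3.04 in CD48-negative HSC2 over double-negative, while Tek left the 2-fold band once, in HSC2/MPP4.

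Genes of the same pathways, taken from lists written around the 6, did not all share their pattern. Of the other caveola genes, Cavin1 (-1.22) and Cavin3 (-1.34), coat proteins like Cavin2, were at least 2-fold lower in HSC2/MPP4 than in CD48-negative HSC2, and Ehd4 (1.20), a membrane-bending ATPase, was higher in CD48-negative HSC2 than in double-negative. No other caveola gene of 5 passed 2-fold in any comparison. Cavin1 stood at 35.2 CPM in HPC1 and 37.1 CPM in HSC1, and Cavin3 at 62.7 CPM in HPC1 and 51.3 CPM in HSC1, a pair in which neither passed 2-fold.

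In the TIE receptor list none of 5 other genes passed 2-fold in any comparison. Tie1, the partner receptor of Tek, stood at 19.6 CPM in HSC2/MPP4 and 46.1 CPM in CD48-negative HSC2. The 10 CPM added to each side brought Tie1 under 2-fold, at a log2 ratio of -0.92. Angpt1, the main agonist ligand, stood at 182 CPM in HSC2/MPP4 and 335 CPM in CD48-negative HSC2. Angpt2, the context-dependent ligand, was between 0 and 2.55 CPM in every library.

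Among 9 other junction genes, Jam2, a junctional adhesion molecule, was at least 2-fold lower in MPP2-containing than in double-negative (-1.49) and in CD48-negative HSC2 than in double-negative (-1.07). F11r, which encodes JAM-A, was lower in HSC2/MPP4 than in CD48-negative HSC2 (-1.30), the same pair in which Esam was lowest. Cd34, a sialomucin of progenitors and endothelium, ran against Esam, at 83.4 CPM in HPC1 and 217 CPM in HSC1 (-1.28), and was higher in CD48-negative HSC2 than in double-negative (1.85). Cldn5, an endothelial claudin, was at 1.71 in HPC1 over double-negative, but 1 cell held 70.5% of its HPC1 counts and the ratio without the highest cells was 0.76.

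Among 7 other genes of the FGD and CDC42 list, Fgd4 was lower in HSC2/MPP4 than in CD48-negative HSC2 (-1.25) and higher in CD48-negative HSC2 than in double-negative (1.33), where Fgd2 (1.01) was also higher. These are exchange factors of the same family as Fgd5. In the list of multimerins, emilins and platelet alpha granule proteins, 4 of 10 other genes were at least 2-fold higher in HPC1 than in HSC1, namely Pf4, Vwf, Selp and F5, and 1 was lower, Emilin2 (-1.29). Without the highest cell of each gene the count was 2, with Selp at 0.92 and F5 at 0.91. Mmrn1 itself was at 0.59 there.

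In thinned cells, 2 or more of the 6 genes had a count in 27 of 80 MPP2-containing, 50 of 81 HPC1, 25 of 80 HSC1, 1 of 81 HSC2/MPP4, 11 of 66 CD48-negative HSC2 and 42 of 75 double-negative cells. In the same cells, 3 or more of the 6 had a count in 5% of MPP2-containing, 28.4% of HPC1, 10% of HSC1, 0% of HSC2/MPP4, 1.52% of CD48-negative HSC2 and 10.7% of double-negative cells. The HPC1 interval (18.9 to 39.5%) lay above those of MPP2-containing (1.38 to 12.3%), HSC1 (4.42 to 18.8%), HSC2/MPP4 and CD48-negative HSC2, and overlapped that of double-negative (4.72 to 19.9%). The HSC1 interval ended just under that of HPC1, and these shares rest on 1 random thinning. No cell had more than 4 of the 6. None of the 6 had a count in 32.5% of MPP2-containing, 9.88% of HPC1, 35% of HSC1, 80.2% of HSC2/MPP4, 50% of CD48-negative HSC2 and 17.3% of double-negative cells. The cells with the highest count of each of the 6 genes were 5 different cells in MPP2-containing, HPC1, HSC1 and double-negative and 6 in CD48-negative HSC2, and 3 for the 5 genes counted in HSC2/MPP4.

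**Figure D4:**
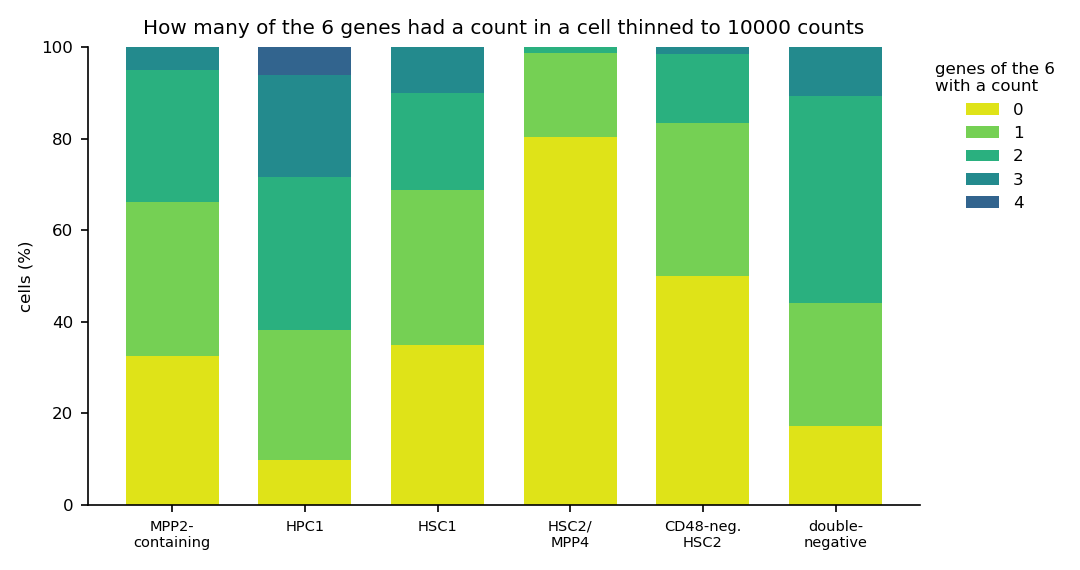
Share of cells (%) by how many of the 6 genes had a count after thinning to 10000 counts, for each library. HSC2/MPP4 had the largest share of cells with none, 80.2%, and HPC1 the largest share with 3 or more, 28.4%.

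Esam and Mmrn1 had a count together in 27 of 81 HPC1 cells, where 47 cells had Esam and 43 had Mmrn1, and in 17 of 75 double-negative cells, where each was in 36. Esam and Cavin2 were together in 25 HPC1 cells and Cavin2 and Mmrn1 in 20, of 40 cells with Cavin2. Pairs of the 6 thus overlapped in part, and cells of 1 library share their preparation.

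In HPC1, MPP2-containing and double-negative, cells with Cavin2 had a higher median megakaryocyte-platelet sum than cells without it, and in HSC1 they did not. In HPC1, the 40 cells with Cavin2 had a median of 26.5 megakaryocyte-platelet counts per 10000 (quartiles 18 and 58.5), and the 41 cells without it had 13 (10 and 21). In MPP2-containing the medians were 21 (quartiles 10 and 46) in the 25 cells with Cavin2 and 8 (4 and 12) in the 55 without. In double-negative they were 12 (9 and 16) in the 21 cells with and 7 (5 and 12.5) in the 54 without. The quartile ranges with and without Cavin2 overlapped in each of these libraries. Left without Pf4, its most abundant gene, the list still gave medians of 13 with and 8 without Cavin2 in HPC1, and 10 and 5 in MPP2-containing. In HSC1 the medians were 5 in the 10 cells with Cavin2 and 6 in the 70 without. The Pearson correlation over cells was 0.63 in MPP2-containing, 0.55 in HPC1, 0.42 in double-negative and 0.06 in HSC1.

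Esam in HPC1 went the other way, with a megakaryocyte-platelet median of 18 in the 47 cells with Esam and 25 in the 34 cells without. Outside HPC1 these medians were 10.5 with and 9 without Esam in MPP2-containing, 7 and 6 in HSC1, and 9 and 8 in double-negative. They were 1 and 1 in HSC2/MPP4, and 3 and 4 in CD48-negative HSC2. The stem cell list had medians of 31 in HPC1 cells with Esam and 18.5 in those without, and of 21 in cells with Cavin2 and 31 in those without. Elsewhere the stem cell medians for Cavin2 were 22 with and 15 without in MPP2-containing, 38.5 and 30 in HSC1, and 23 and 22.5 in double-negative. For Esam they were 20 with and 17 without in MPP2-containing, 37 and 25 in HSC1, and 22.5 and 23 in double-negative. They were 30.5 and 26.5 in CD48-negative HSC2, where the correlation over cells was -0.11, and 13 and 10 in HSC2/MPP4, with 5 Esam cells. For Mmrn1 the stem cell medians were 22 with and 16 without in MPP2-containing, 29 and 23.5 in HPC1, and 39.5 and 27 in HSC1. They were 20 and 10 in HSC2/MPP4, with 6 Mmrn1 cells, 32.5 and 25 in CD48-negative HSC2, and 22.5 and 23 in double-negative. The median was thus higher with Esam, and likewise with Mmrn1, in every library but double-negative. A lower median with Cavin2 was seen in HPC1 alone. For Mmrn1 in HPC1 the megakaryocyte-platelet medians were 17 with and 19 without, and in HSC1 8.5 with and 6 without. The quartile ranges of these Esam, Mmrn1 and Cavin2 pairs overlapped. The correlation of Esam with the endothelial sum over cells was -0.01 in MPP2-containing, 0.38 in HPC1, 0.10 in HSC1, 0.08 in HSC2/MPP4, 0.22 in CD48-negative HSC2 and 0.14 in double-negative.

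**Figure D5:**
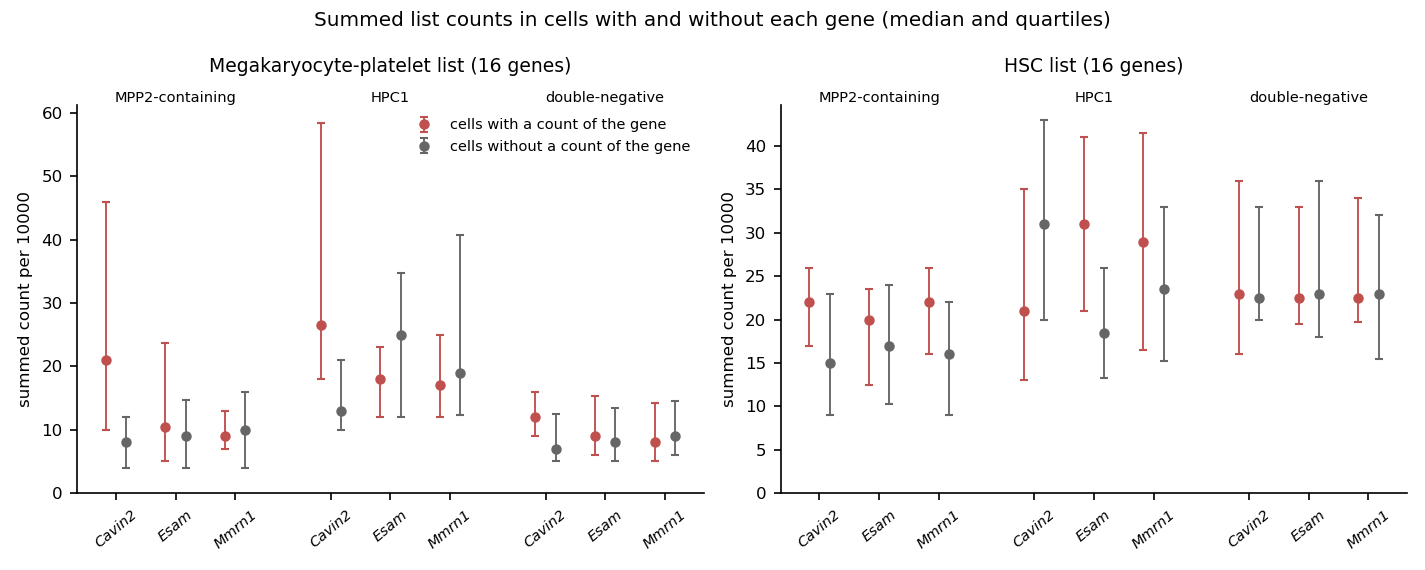
Summed counts per 10000 of the megakaryocyte-platelet and stem cell (HSC) lists in cells with and without a count of Cavin2, Esam or Mmrn1 in 3 libraries; points are medians and lines run between the quartiles. In HPC1 the megakaryocyte-platelet median was 26.5 in cells with Cavin2 and 13 in cells without, and the stem cell median 31 in cells with Esam and 18.5 in cells without.

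The genes most like each of the 6 were sought among 8380 genes that had a count in 25% or more of the cells of some library. Over the 6 library levels, Cavin2 was closest to Ache (Pearson r 0.99), Itgb3 (0.99), the platelet integrin subunit, and Nbdy (0.98). Mmrn1 was closest to Prrc2c, Dync1h1 and P2rx1, Esam to Ahi1, Stambp and Spn, and Tek to Rab11b, Abhd6 and Cdadc1. Fgd5 was closest to Sde2, Fbxl4 and Ift80, and Cav2 to Ubtf, Rtfdc1 and Ash1l. With 6 points many genes reach such values, 46 of them at 0.95 or more for Esam. Over cells within libraries, Cavin2 was closest to Pf4, with a mean r of 0.37, then Slc14a1 (0.35) and Pdcd4 (0.32). The closest gene to each of the other 5 had a mean r of 0.22 to 0.25. The means for Cavin2 cover 4 libraries, since no thinned cell of HSC2/MPP4 or CD48-negative HSC2 had a count of it. Those for Tek cover 5 libraries and the rest 6, so these values are not from the same libraries.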

How the data were processed

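Single-cell 3' transcript libraries of 6 groups were used, 1 library each. Per the submitters' processing notes TopHat, HTSeq and the mm10 build were used; their versions, the gene annotation and any filter on cells were not stated in the labels. The deposited values are scores, centred and scaled to SD 1 for each gene across all 497 cells, with a ceiling of 10. The tables of HSC2/MPP4 and CD48-negative HSC2 carry no gene names and were joined to the named table line by line, which gave 9901 genes without a capped value a joint mean within 1.15e-10 of 0. The values fit logged counts per 10000 from which 4 cell covariates had been regressed out, and this was undone to recover counts. Counts came back for 11989 of 13278 genes. In these, 100% of 1994283 values up to 50 were whole within 0.01. A gene was accepted only if its values were whole within that distance, so this share is not a separate check. Of the genes without recovered counts, 194 had too few cells without a count to be solved, and for 1095 the step could not be completed. The share of a cell's total in recovered genes was 50.9 to 79.9%, and CPM are of the whole total. None of the 6 genes held a capped value. A total of 6 blank lines were dropped and no cell was filtered or called a doublet. The procedure was run on data simulated under the same assumed scaling, which cannot show whether the submitters used that scaling. Levels, thinned shares and ratios were computed with Python 3.11.15, numpy 2.4.6, scipy 1.17.1, pandas 2.3.3 and matplotlib 3.10.9.

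With 1 library per group there was no test. Named genes are the 6, the 3 most like each by correlation over libraries and over cells, and any gene of the 5 pathway and 4 marker lists. Predicted, mitochondrial and ribosomal protein symbols were left out of the likeness search. The members and lists were chosen with earlier results of these data known. Alternatives were the mean over cells, leaving out the highest or deepest cells, 1 CPM added, other scalings, the mean of logs, the deposited scores, and other thinning. List genes without their highest cell were added after seeing the data.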

Additional observations from a re-analysis of the deposited data

How the results depend on the processing

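No paired analysis was possible because each group has 1 library. Of 36 log2 ratios of the 6 genes, 9 were past 2-fold, and all 9 kept their sign under each of the 8 alternatives. All 9 stayed past 2-fold without the highest cell of each gene, without the deepest 10% of cells, with 1 CPM added, scaled to recovered genes and with median-of-ratios factors; 8 did with the mean of per-cell CPM and 5 with the mean of log2(CPM + 10). For HPC1 over HSC1 the median log2 ratio was 0.35 with the mean of per-cell CPM and 0.35 without the deepest cells, and 2 genes were 2-fold higher by mean logs. For HSC1 over double-negative 0 were 2-fold lower by mean logs. For HPC1 over double-negative 1 gene was 2-fold higher with 1 CPM added and 1 by mean logs, with medians of 0.58 and 0.24. For MPP2-containing over double-negative the count lower was 0 with the per-cell mean, 2 with 1 CPM added and 2 scaled to recovered genes. Its median was -0.35 with the per-cell mean, -0.42 without the highest cell, -0.43 without the deepest cells and -0.10 by mean logs. For HSC2/MPP4 over CD48-negative HSC2 the count lower was 5 with 1 CPM added and 1 by mean logs, and the median -2.06 with 1 CPM added, -1.45 scaled to recovered genes and -0.26 by mean logs. For CD48-negative HSC2 over double-negative 0 were higher by mean logs, with a median of -0.74; there the median of all genes moved to -0.13. The cause of these moves was not tested. After thinning, shares rest on 0 to 11 cells per library for Tek, Fgd5 and Cav2, and on 0 to 6 cells in HSC2/MPP4 for the other genes. With another random thinning 1 share left its interval and 35 did not. At 20000 counts 8 left it and 28 did not, and with no thinning 20 did and 16 did not.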
